A study of Mus musculus and Rattus norvegicus with 12 samples.

Results

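The BMP, activin and follistatin genes described here are 10 genes: the bone morphogenetic protein genes Bmp2, Bmp4, Bmp6 and Bmp10, the activin subunit genes Inhba and Inhbb, the follistatin genes Fst, Fstl1 and Fstl3, and the myostatin gene Mstn. They were taken by symbol, ignoring case, from a table of 54087 gene symbols for mouse hearts and a table of 28909 for rat heart cells, and all 10 were found in both. In hearts 8 of the 10 had enough counts to be tested, all but Bmp10 and Mstn. In rat cells 9 of the 10 were tested, all but Bmp10.

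RNA was sequenced from hearts and from cultured heart cells after Jmjd4, which encodes a JmjC-domain oxygenase, had been targeted. All 6 mice carried floxed Jmjd4 alleles (Jmjd4f/f) and were given tamoxifen, and the heart apex was collected 14 days later. The flox group (n = 3) had no Cre transgene, and the cKO group (n = 3) also carried MCM, a tamoxifen-inducible Cre driven by a Myh6 promoter in cardiomyocytes, so Cre itself and loss of Jmjd4 cannot be told apart. The rat cells were wild-type neonatal ventricular cardiomyocytes (NRVCs) from Sprague-Dawley rats 1 day old, kept for 48 h with either control siRNA (siNC, n = 3) or siRNA to Jmjd4 (siJmjd4, n = 3). The labels do not say whether the replicates of a group came from separate isolations or, in the mouse, from single or pooled animals, so a p-value here measures the spread between these libraries.

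BMPs, activins and myostatin are secreted ligands of the TGF-beta superfamily. They bind pairs of type I and type II serine/threonine kinase receptors, and the signal passes to SMAD1, SMAD5 and SMAD9 for BMPs and to SMAD2 and SMAD3 for activins and myostatin. Activin A is a dimer of the subunit encoded by Inhba and activin B a dimer of that encoded by Inhbb. Follistatin (Fst) and follistatin-like 3 (Fstl3) bind activins and myostatin outside the cell and keep them from their receptors, while follistatin-like 1 (Fstl1) shares the domain that names the family and is a secreted glycoprotein made by cardiac fibroblasts and other mesenchymal cells. BMP2 and BMP4 act in heart development, BMP10 is made by atrial cardiomyocytes of the adult heart, BMP6 is best known for inducing hepcidin in the liver, and myostatin limits muscle growth.

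The 12 libraries held 57174654 to 82187009 counts. Values below are in CPM, counts relative to a library total scaled by TMM, a method that takes most genes as unchanged, and values of a group stand in the order of replicates 1, 2 and 3. In hearts, Jmjd4 stood at 14.6 ± 5.82 CPM in flox and 7.84 ± 2.55 CPM in cKO (SD, n = 3), and the groups overlapped (log2 fold change -0.90, SE 0.44, edgeR's quasi-likelihood test, adjusted p = 0.397). In NRVCs it was 2.95 ± 1.77 CPM with siNC and 3.51 ± 0.0791 CPM with siJmjd4, a log2 fold change of 0.25 (edgeR, adjusted p = 0.77), so the knockdown was not detectable and the second group is the libraries labelled siJmjd4. Flox replicate 3 stood apart, with 41.7% of counts from mitochondrial genes against 14.2% to 24.1% in the other hearts and 1485 tested genes without a count against 125 to 503. Its short genes were relatively high and its long genes low (Spearman's rho of -0.55 with exon length, across genes), and the same held in cKO replicate 2 (-0.51), siNC replicate 3 (-0.44) and siJmjd4 replicate 1 (-0.33). The labels give cardiomyocytes as the cell type of all samples, but the mouse samples are heart apex and both systems held markers of other cell types. Summed ventricular cardiomyocyte markers came to 51900 to 77200 CPM in flox and 33500 to 36200 CPM in cKO. Of these 10 markers 0 had a positive log2 fold change (median -0.88), but 0 were called by edgeR. Abundant ones were widely spread in flox, such as Myh6 (16370 ± 11080 CPM) and Myl2 (7500 ± 8388 CPM, SD, n = 3). Tnni3 (5748 ± 5947 against 1287 ± 467 CPM) and Pln (1363 ± 825 against 203 ± 52.9 CPM) were lower in cKO with no overlap, and the rest overlapped. These 2 were also the ones at an unadjusted p under 0.05 by edgeR, as were 2715 of 18094 genes in either direction. In NRVCs the sum was 13000 to 19700 CPM with siNC and 9740 to 12300 CPM with siJmjd4. Of 9 tested there, 1 was positive (median -0.42) and 0 were called by edgeR. With no overlap, 6 were lower and 1 higher, where 22.4% of all genes were higher. At an unadjusted p under 0.05, 3 were lower, against 1350 of 15497 genes in either direction. Fibroblast markers in NRVCs reached 36200 to 49600 CPM.

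The promoters of Fstl3, Bmp4 and Inhba are shown because Fstl3 was the 1 member called in hearts, Bmp4 was called there once flox replicate 3 was left out, and Inhba had the highest fold change of the members in NRVCs. Fstl1 was called in the same fit as Bmp4, and its promoter is not shown. Each sequence is the mouse reference upstream of the gene's start, from RefSeq on GRCm38.p6, read along the gene's strand. Capitals mark matches to the motifs named after them.
Fstl3, chr10:79777024-79777271, plus strand: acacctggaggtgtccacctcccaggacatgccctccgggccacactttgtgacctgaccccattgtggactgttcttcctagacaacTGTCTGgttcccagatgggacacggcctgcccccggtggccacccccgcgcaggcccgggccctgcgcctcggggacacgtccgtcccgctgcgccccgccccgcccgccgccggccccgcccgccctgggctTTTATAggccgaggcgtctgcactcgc
Bmp4, chr14:46390670-46390919, minus strand: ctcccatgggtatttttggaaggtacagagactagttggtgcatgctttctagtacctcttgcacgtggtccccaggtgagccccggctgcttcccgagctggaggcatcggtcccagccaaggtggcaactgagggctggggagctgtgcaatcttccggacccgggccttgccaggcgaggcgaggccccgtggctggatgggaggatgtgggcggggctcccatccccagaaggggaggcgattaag
Inhba, chr13:16011601-16011850, plus strand: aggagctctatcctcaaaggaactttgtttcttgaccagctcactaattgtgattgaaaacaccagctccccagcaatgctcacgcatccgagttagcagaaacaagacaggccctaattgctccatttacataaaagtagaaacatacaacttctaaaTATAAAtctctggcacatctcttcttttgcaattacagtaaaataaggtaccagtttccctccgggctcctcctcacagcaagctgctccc

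Promoters of 8 of the 10 members, all but Bmp2 and Fst, were matched in the RefSeq sequences used here, and 6 motifs were searched on both strands of the 250 bases before each start. These were GGCGCC (a GC-rich element bound by SMAD1 and SMAD5), GTCTAGAC and CAGACA (elements bound by SMAD3 and SMAD4), TGANTCA (AP-1), CATTCC (TEAD) and TATAAA (the TATA box). None of the 6 contains another. The Fstl3 promoter held 1 CAGACA, on the opposite strand 162 bases before the RefSeq start, and 1 TATAAA, on the opposite strand 29 bases before it. The Inhba promoter held 1 TATAAA on its own strand, 91 bases before the start. The Mstn promoter held CAGACA at 120 and TATAAA at 29 bases before its start, both on its own strand. It also held TGANTCA at 170 bases, a motif that reads the same on either strand. No match was found for Bmp4, Bmp6, Bmp10, Inhbb or Fstl1. Of 32851 mouse promoters of the same length, 17.1% held CAGACA, 12.4% TATAAA, 12.6% CATTCC, 9.59% GGCGCC, 6.75% TGANTCA and 0.167% GTCTAGAC.

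In cKO hearts, 7 of the 8 tested genes stood above flox hearts, with no overlap between the 3 libraries of each group, but 1 passed the test. That gene was Fstl3, at 6.66 times its flox level. Among all 18094 genes tested, 14.9% were higher with no overlap, and 0.508% passed edgeR's quasi-likelihood test at an adjusted p under 0.05 (67 higher, or 0.37%, and 25 lower, or 0.138%). At an unadjusted p under 0.05, 6 of the 8 were higher in cKO, against 8.22% of all genes. The median log2 fold change of the 8 was 1.75, and that of all genes tested was 0.0003. The members ran from -0.27 for Bmp2 to 2.74 for Fstl3.

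**Figure D1:**
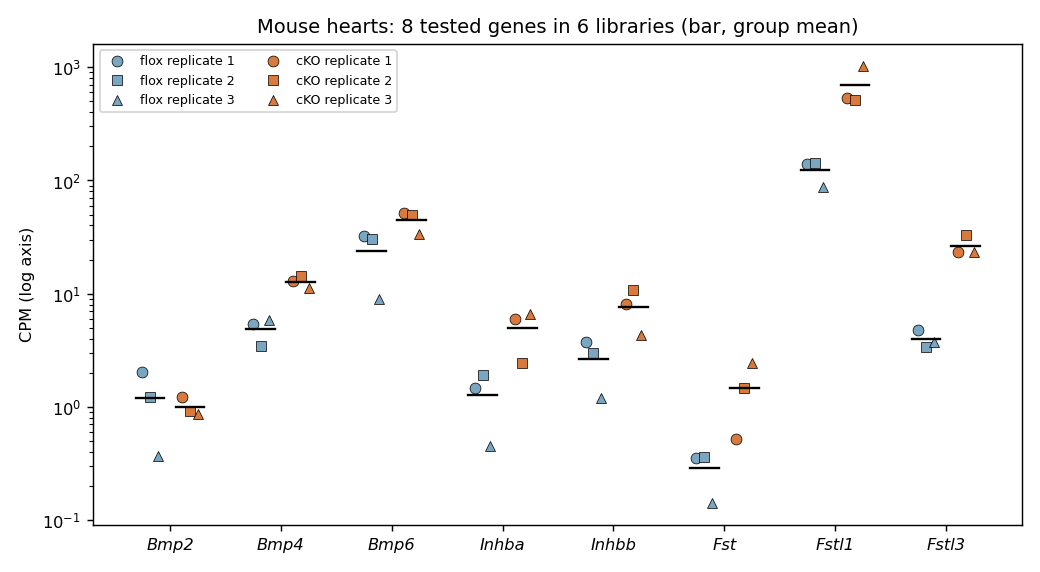
Level of the 8 tested genes in each mouse heart library, in CPM on a log axis. Blue symbols are flox and orange symbols cKO, shapes give the replicate, and bars are group means (n = 3). For every gene but Bmp2 the 3 orange symbols lie above the 3 blue ones, and for 6 of the 8 genes the lowest value is flox replicate 3.

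Fstl3, the secreted inhibitor of activins and myostatin, was measured at 4.76, 3.39 and 3.7 CPM in flox and at 23.1, 32.7 and 23.2 CPM in cKO. The flox libraries lay close together, and even the lowest cKO library was far above them. The mean rose from 3.95 ± 0.719 to 26.3 ± 5.54 CPM (SD, n = 3), a log2 fold change of 2.74 (SE 0.32, edgeR, adjusted p = 0.0346), which placed it 28th of 18094 genes by p. Flox replicate 3, the library low for most members, was at 0.908 of the mean of the other flox libraries for Fstl3. The gene lies on chr10:79777272-79782630, plus strand, and shares 1157 exon bases with Prss57 on the other strand. Prss57 had 0, 0 and 5 counts in flox and 0, 39 and 0 in cKO, against at least 131 for Fstl3 in every library. The sources used here do not say whether counting used strand.

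Fstl1, the glycoprotein of fibroblasts and other mesenchymal cells, was the most abundant member. It was measured at 139, 144 and 87 CPM in flox and at 538, 511 and 1030 CPM in cKO. The groups did not overlap, and cKO replicate 3 stood well above the other cKO libraries. A log2 fold change of 2.49 (SE 0.47), 5.62-fold, missed the threshold (edgeR, adjusted p = 0.0781). Without flox replicate 3 it passed at 2.29 (edgeR, adjusted p = 0.0193), in a fit that called 7.19% of all genes. Fibroblast markers moved with Fstl1. All 9 of 9 were higher in cKO, 6 at an unadjusted p under 0.05 and 0 after adjustment. Their sum ran from 807 to 1260 CPM in flox and from 2890 to 7500 CPM in cKO, with the highest value in cKO replicate 3 as for Fstl1, and no marker of the list was at 0. Their part in the result was not tested. In bulk tissue, a change in the number of cells of a type and a change in RNA per cell cannot be told apart.

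Fst, the inhibitor that gives the family its name, was scarce. It had 28, 28 and 5 counts in flox and 49, 115 and 217 counts in cKO, or 0.356, 0.363 and 0.141 CPM against 0.514, 1.46 and 2.43 CPM. The groups did not overlap, though cKO replicate 1 was close to the flox libraries. It did not pass, with a log2 fold change of 2.32 (SE 0.73, edgeR, adjusted p = 0.206) and a wide spread in cKO (1.47 ± 0.956 CPM).

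Among the ligands, Bmp4, a factor of heart development, had the smallest standard error. It was measured at 5.39, 3.45 and 5.82 CPM in flox and at 12.8, 14.3 and 11.1 CPM in cKO. The libraries within each group lay close together and the groups did not overlap. The log2 fold change was 1.38 (SE 0.32, edgeR, adjusted p = 0.111), and without flox replicate 3 it was 1.53 and passed (edgeR, adjusted p = 0.0258). The fit without that library called 4.26% of all genes higher. Bmp4 was the 1 tested member that was higher in flox replicate 3 than in the mean of the other flox libraries, at 1.32 times it, and its exons are the shortest of the 10 genes at 2.248 kb.

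Bmp6, better known from the control of iron, was the most abundant BMP. It stood at 32, 30.5 and 8.92 CPM in flox and at 51.9, 49.9 and 33.4 CPM in cKO. The highest flox library reached just below the lowest cKO library. The log2 fold change of 0.92 (SE 0.52) did not pass (edgeR, adjusted p = 0.474), and it was 0.54 without flox replicate 3. Bmp6 shares 224 exon bases with Txndc5 on the other strand, which had 1597 to 1862 counts in flox and 3347 to 12056 in cKO, so reads of the shared stretch cannot be told apart here.

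Bmp2 was low and showed no difference that could be read. It stood at 2.01, 1.22 and 0.367 CPM in flox and at 1.22, 0.915 and 0.872 CPM in cKO. All 3 cKO values fell within the range of flox. The log2 fold change was -0.27 (SE 0.64, edgeR, adjusted p = 0.901), with 0.33 when flox replicate 1 was left out and 0.091 under scaling to total counts alone, which moves the median of all genes to 0.54. Bmp10, the atrial ligand, had 0 counts in all 6 hearts, and a count of 0 allows up to 3 counts in a library, or 0.0847 CPM at most. Sln, another atrial gene, was at 0 in flox and at 0.0186 ± 0.0323 CPM in cKO, while the atrial list of 7 genes summed to 131 to 192 CPM in flox and 6070 to 16600 CPM in cKO. All 5 tested genes of the list had a positive log2 fold change, with a median of 2.56. Most of the sum was Nppa, which rose from 129 ± 42.1 to 10060 ± 5622 CPM (edgeR, adjusted p = 0.0333). Myl4 stood at 2.32 ± 1.63 in flox and 27 ± 16.4 CPM in cKO with no overlap (edgeR, adjusted p = 0.0988). Myl7, at 1.83 ± 2.15 and 10.6 ± 5.95 CPM, overlapped between the groups (edgeR, adjusted p = 0.278). So did Nr2f2 and Tbx5, with log2 fold changes of 0.17 and 0.27 (edgeR, adjusted p = 0.94 and 0.889).

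The activin subunits both stood higher in cKO without passing. Inhba, the activin A subunit, was measured at 1.48, 1.89 and 0.452 CPM in flox and at 5.96, 2.43 and 6.65 CPM in cKO. The groups did not overlap, and cKO replicate 2 lay near the flox libraries. This gave a log2 fold change of 1.96 (SE 0.63, edgeR, adjusted p = 0.221). Inhba has the longest exons of the 10 genes, 6.39 kb, and the libraries in which long genes were low, flox replicate 3 and cKO replicate 2, were its lowest in each group. With both left out it was 1.89 and passed (edgeR, adjusted p = 0.00719), where 9.54% of all genes were called higher. Inhbb, the activin B subunit, stood at 3.72, 2.96 and 1.19 CPM in flox and at 8.04, 10.7 and 4.3 CPM in cKO. These groups did not overlap either, with the lowest cKO library just above the highest flox library. Its log2 fold change was 1.54 (SE 0.53, edgeR, adjusted p = 0.246).

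Mstn was at the edge of detection and was not tested. It had 12, 8 and 21 counts in flox and 5, 0 and 0 in cKO. It was thus the 1 member with every cKO library below every flox library, at counts too low for a fold to be read. Mstn is mainly a skeletal muscle gene, and the skeletal muscle markers summed to 1940 to 6120 CPM in flox and 1820 to 3650 CPM in cKO, with the highest value in flox replicate 3 as for Mstn, and Myh4 was at 0 throughout. Of the 6 markers tested, 5 had a positive log2 fold change, with a median of 1.10 and 0 called by edgeR, 2 being at an unadjusted p under 0.05. The sum was carried by Ckm, at 3194 CPM in flox and 1152 CPM in cKO, and Acta1, at 175 and 1606 CPM, which heart muscle also expresses. Their part in the Mstn counts was not tested.

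Per kilobase of exon, a scale on which genes can be compared, Fstl1 led in both groups, with 25.2 ± 6.49 CPM per kb in flox and 141 ± 59.5 CPM per kb in cKO (SD, n = 3). In flox the order below it was Bmp6 at 6.1 ± 3.31, Bmp4 at 2.18 ± 0.559 and Fstl3 at 1.61 ± 0.299 CPM per kb, and the ranges of Bmp6 and Bmp4, and of Bmp4 and Fstl3, overlapped. In cKO Fstl3 stood above Bmp4, at 10.8 ± 2.27 against 5.67 ± 0.731 CPM per kb with no overlap, and its range overlapped that of Bmp6 at 11.6 ± 2.6 CPM per kb. Inhbb followed at 0.616 ± 0.305 in flox and 1.8 ± 0.754 in cKO, with Inhba at 0.199 ± 0.116 and 0.784 ± 0.354 CPM per kb. In flox each of Inhbb, Bmp2, Inhba, Mstn and Fst, in that order, overlapped the next, and in cKO so did each of Inhbb, Inhba, Fst and Bmp2. Fst stood at 0.0625 ± 0.0275 CPM per kb in flox, the lowest level above 0 there, and at 0.32 ± 0.208 CPM per kb in cKO, where Bmp2 and Mstn were lower and Bmp10 was at 0 in each group. The level of the inhibitors Fst and Fstl3 together, divided by that of the activin subunits together on the same scale, was 1.83, 1.48 and 4.42 in flox and 3.38, 4.74 and 4.88 in cKO. These ratios overlapped through flox replicate 3.

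The calls depended on which libraries and which scaling were used. Leaving out flox replicate 3 gave 3 members called, Fstl3, Fstl1 and Bmp4, where 4.26% of all genes were called higher. Leaving out any of the other 5 libraries gave 0 members called by edgeR, with Fstl3 at a log2 fold change of 2.55 to 2.91 and an adjusted p of 0.151 to 0.193. Those fits called 0 genes of the whole table, with 1657 to 2587 at an unadjusted p under 0.05. Scaling to total counts alone put Fstl3 at 3.27 (edgeR, adjusted p = 0.069), with 0 members called. DESeq2's Wald test called 5 members, Bmp4, Inhba, Fst, Fstl1 and Fstl3, against 5.29% of all genes called higher. With the trend of each library with exon length removed, edgeR called 3 members, Bmp4, Fstl1 and Fstl3, against 1.86% of all genes called higher.

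**Figure D2:**
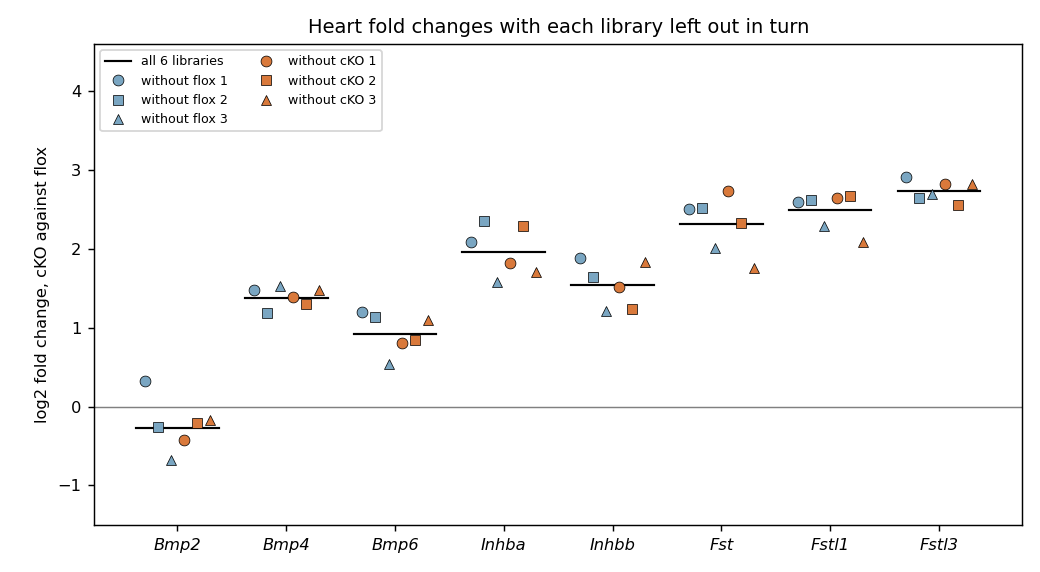
Log2 fold change of the 8 tested genes, cKO against flox, with each of the 6 heart libraries left out in turn (symbols) and with all 6 (bar). Fstl3 stays between 2.55 and 2.91, Bmp4 between 1.19 and 1.53, and Bmp2 crosses 0 when flox replicate 1 is left out.

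In NRVCs, 0 of the 9 tested members passed edgeR's quasi-likelihood test between the libraries labelled siJmjd4 and siNC. Of all 15497 genes tested 1 did, or 0.00645%. At an unadjusted p under 0.05, 1 member, Inhba, was higher, against 5.79% of all genes. Of the 9, 8 had a positive log2 fold change and 4 (Bmp2, Bmp6, Inhba and Fstl1) stood higher with no overlap, against 50.3% and 22.4% of all genes. The 8 include Mstn, at counts too low for a fold to be read. They also include Bmp4 and Inhbb, which were at -0.012 and -0.0023 without siNC replicate 3. The median was 0.34, and that of all genes was 0.01.

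**Figure D3:**
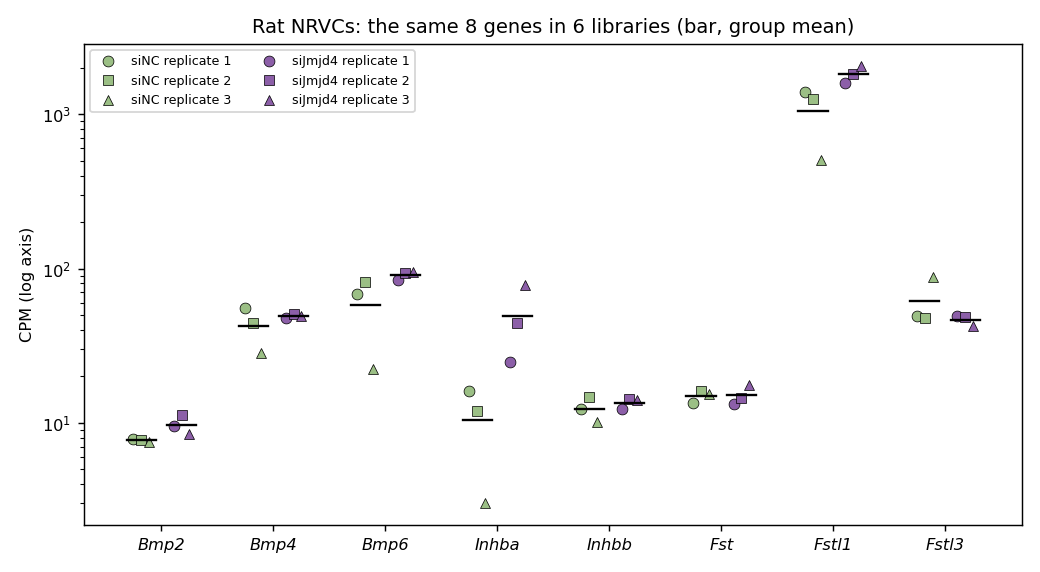
Level in each rat NRVC library of the 8 genes plotted for hearts, in CPM on a log axis. Green symbols are siNC and purple symbols siJmjd4, shapes give the replicate, and bars are group means (n = 3). Inhba is spread most widely, from 3.02 to 78 CPM, and siNC replicate 3 is the lowest library for 6 of the genes and the highest for Fstl3.

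Inhba gave the highest fold change of the members. It was measured at 16.1, 12 and 3.02 CPM in siNC and at 24.8, 44.6 and 78 CPM in siJmjd4. The groups did not overlap, but both were widely spread, and siNC replicate 3, in which long genes were low, was 0.215 of the mean of the other siNC libraries. The log2 fold change was 2.24 (SE 0.69, edgeR, adjusted p = 0.379), above that of 99.6% of the genes tested. Without siNC replicate 3 it was 1.80 (edgeR, adjusted p = 0.222), and DESeq2's Wald test with all libraries called it (adjusted p = 0.0489), as it did 0.878% of all genes as higher. Counted against Inhbb, the other activin subunit, there were 1.31, 0.813 and 0.3 Inhba counts per Inhbb count with siNC and 2.01, 3.14 and 5.59 with siJmjd4. Against Fst, which binds the product, there were 1.21, 0.749 and 0.198 Inhba counts per Fst count with siNC and 1.86, 3.07 and 4.44 with siJmjd4. Neither ratio overlapped between the groups, whereas Inhbb and Fst themselves did. Inhba on its own did not overlap either, so the ratios are not a separate result.

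Inhbb was at 12.3, 14.8 and 10.1 CPM in siNC and at 12.3, 14.2 and 14 CPM in siJmjd4. The groups overlapped (log2 fold change 0.13, SE 0.21, edgeR, adjusted p = 0.709). Fst was as even, at 13.4, 16 and 15.3 CPM with siNC and 13.3, 14.5 and 17.6 CPM with siJmjd4, a log2 fold change of 0.02 (SE 0.19, edgeR, adjusted p = 0.945).

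Fstl3, called in hearts, did not stand higher in the libraries labelled siJmjd4. It was at 48.9, 47.8 and 87.7 CPM in siNC and at 49.4, 48.5 and 42.3 CPM in siJmjd4. All libraries but siNC replicate 3 lay close together. The log2 fold change was -0.40 (SE 0.27, edgeR, adjusted p = 0.407) and was -0.05 without that library. Fstl1, again the member with the most counts, was at 1400, 1260 and 505 CPM with siNC and 1590, 1830 and 2060 CPM with siJmjd4. The groups did not overlap, and siNC replicate 3 was far below the rest. Its log2 fold change was 0.79 (SE 0.38, edgeR, adjusted p = 0.379), and it was 0.46 (SE 0.11, edgeR, adjusted p = 0.0706) without siNC replicate 3. The fibroblast markers, 9 of 9 with a positive log2 fold change and none called by edgeR, summed to 36200 to 44200 CPM with siNC and 42900 to 49600 CPM with siJmjd4. Their part in the Fstl1 values was not tested.

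The BMP ligands differed little. Bmp2 was at 7.83, 7.7 and 7.55 CPM with siNC and 9.57, 11.2 and 8.51 CPM with siJmjd4, a narrow gap without overlap (log2 fold change 0.34, SE 0.19, edgeR, adjusted p = 0.379). Bmp6 was at 68.4, 82.3 and 22.3 CPM with siNC and 84.1, 93.1 and 95.2 CPM with siJmjd4 (log2 fold change 0.65, SE 0.45, edgeR, adjusted p = 0.408), and without siNC replicate 3 the fold change was 0.27. Here too the gap between the groups was small beside the spread within siNC. Bmp4 overlapped between the groups, at 55.2, 44.2 and 28.4 CPM against 47.6, 50.9 and 49.5 CPM, with a log2 fold change of 0.21 (SE 0.25, edgeR, adjusted p = 0.599). Bmp10 had 9, 6 and 0 counts with siNC and 28, 9 and 23 counts with siJmjd4, and Mstn had 12, 0 and 0 counts against 4, 32 and 12. Both were too scarce for a fold to be read.

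The responses of hearts and NRVCs were set against each other in 1 edgeR model of all 12 libraries, in which the difference itself is tested. Species, age, tissue and the way Jmjd4 was targeted differ together between the systems and cannot be told apart. Of 13482 genes tested, 1.68% had a response that differed (1.34% higher in hearts and 0.341% lower). Of the 9 members tested, 1 did, and it was Fstl3, whose log2 fold change was 3.13 higher in hearts (SE 0.43, edgeR, adjusted p = 0.00509). That call held with each of the 12 libraries left out in turn, where the difference was 2.74 to 3.3.

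**Figure D4:**
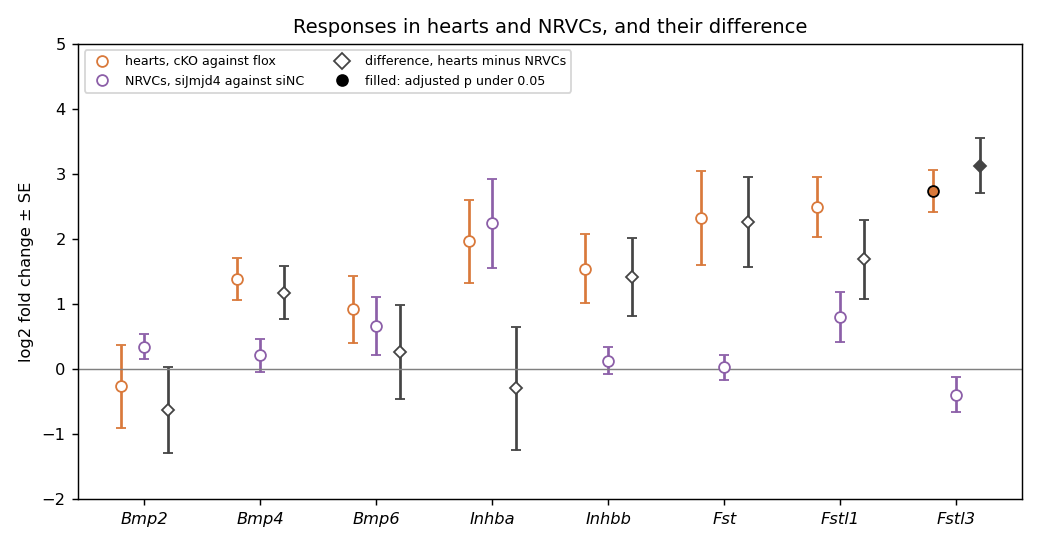
Log2 fold change in hearts (orange) and in NRVCs (purple), and the difference between them (diamonds), with standard errors, for the 8 genes tested in each system on its own, which leaves out Mstn. Filled symbols passed the test at an adjusted p under 0.05: Fstl3 in hearts, at 2.74, and the difference for Fstl3, at 3.13.

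For the other follistatins the difference did not pass, at 2.26 (SE 0.69, edgeR, adjusted p = 0.134) for Fst and 1.69 (SE 0.61, edgeR, adjusted p = 0.198) for Fstl1. For the ligands it was 1.18 (SE 0.41, edgeR, adjusted p = 0.186) for Bmp4, 1.41 (SE 0.60, edgeR, adjusted p = 0.287) for Inhbb, 0.26 (SE 0.72) for Bmp6 and -0.63 (SE 0.66) for Bmp2. For Mstn it was -5.59 (SE 2.36, edgeR, adjusted p = 0.282), a fitted value that rests on 5 counts over the 3 cKO libraries. With flox replicate 3 and siNC replicate 3 both left out, 3 members passed, Fstl3 at 2.73, Fstl1 at 1.82 (edgeR, adjusted p = 0.0185) and Bmp4 at 1.53 (edgeR, adjusted p = 0.0101), where 7.16% of all genes were called higher in hearts. DESeq2's Wald test on all libraries also called 3, Fst, Fstl1 and Fstl3, against 5.29% of all genes called higher in hearts. Inhba had like fold changes in both systems, 1.96 and 2.24. Its difference of -0.30 had a standard error of 0.95, too wide to tell a like response from an unlike one.

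The other genes of the pathway were taken from 7 lists. In hearts the targets of activin and SMAD2/3 signalling had the highest median, a log2 fold change of 2.17. All 8 tested stood higher in cKO with no overlap, 6 at an unadjusted p under 0.05 and 2 after adjustment, Fstl3 and Ctgf. Among all genes tested in hearts, 14.9% were higher with no overlap, 8.22% higher at an unadjusted p under 0.05 and 0.37% called higher. The list holds the members Fst and Fstl3. It shares Skil and Smad7 with the list of SMADs and their regulators, and Smad7 with the BMP targets. Beside the fibroblast markers given above, macrophage markers were 8 of 8 positive, summing to 356 to 718 CPM in flox and 732 to 1030 CPM in cKO. Mesothelial markers were 5 of 5 positive, summing to 30.9 to 41.1 and 61.7 to 108 CPM, and 0 of either list were called by edgeR, with 4 and 2 at an unadjusted p under 0.05 and none at 0. Other lists were mixed. Smooth muscle and pericyte markers were 3 of 7 positive (median -0.29), with Cnn1 called higher (log2 fold change 3.22, edgeR, adjusted p = 0.0387) and Acta2 lower with no overlap. Endothelial markers were 4 of 7 positive (median 0.11), with 0 called. The part of these cell types in the targets' values was not tested. Ctgf, a matrix protein gene, rose from 46.5 ± 13.9 to 1087 ± 178.7 CPM (SD, n = 3, edgeR, adjusted p = 0.0255). Pmepa1, a target that dampens SMAD signalling, stood at 26.3 ± 6.62 and 106.6 ± 14.9 CPM (log2 fold change 2.02, edgeR, adjusted p = 0.0609). It passed without flox replicate 3, as did Tgif1, in a fit that called 4.26% of all genes higher. Of 11 BMP targets, 9 had a positive fold change and 0 were called by edgeR, 4 of them reaching an unadjusted p under 0.05, and the median was 0.96. Atoh8, a transcription factor gene, stood at 7.40 ± 0.83 in flox and 19.0 ± 1.22 CPM in cKO (log2 fold change 1.36, edgeR, adjusted p = 0.0823). Id2 and Id4, inhibitors of helix-loop-helix factors, had fold changes of 1.48 and 2.34, while Id1, the best-known BMP target, was at -0.40 (SE 0.52). Without flox replicate 3, Atoh8, Id2, Id3 and Id4 passed, in the same fit that called 4.26% of all genes higher.

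Among other ligands in hearts, Gdf6, a BMP family ligand of joints and skeleton, rose from 0.514 ± 0.327 to 23.4 ± 5.90 CPM, a log2 fold change of 5.46 (SE 0.65, edgeR, adjusted p = 0.0387). It was the 1 of 12 tested to pass, and the list's median was 0.24. Gdf15, a stress-induced ligand, stood at 1.09 ± 0.126 and 9.38 ± 5.46 CPM (3.10, edgeR, adjusted p = 0.0574). Of 12 other antagonists 1 passed, Sost, which encodes sclerostin, from 0.488 ± 0.283 to 6.59 ± 1.3 CPM (3.74, edgeR, adjusted p = 0.0452), and the median was 0.31. Sostdc1, which is related to it, was lower in cKO at -3.48 without passing (edgeR, adjusted p = 0.242), and Grem1, Chrdl2 and Fstl5 were at 0 in every heart. Of 12 receptors and co-receptors 0 passed edgeR's test, 6 were positive and the median was 0.04. Hfe2, the hemojuvelin co-receptor of BMP6, stood at 221 ± 33.6 in flox and 108.9 ± 29.6 CPM in cKO (-1.02, SE 0.36, edgeR, adjusted p = 0.244), the 1 receptor at an unadjusted p under 0.05. None of 6 convertases and tolloid proteases, which mature the ligands and cut their antagonists, passed edgeR's test or an unadjusted p under 0.05. All 6 were positive, with a median of 0.69. Of 12 SMADs and their regulators 0 passed, 11 were positive and the median was 0.51, and the inhibitory Smad6 at 1.26 (SE 0.44, edgeR, adjusted p = 0.255) was the 1 at an unadjusted p under 0.05.

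**Figure D5:**
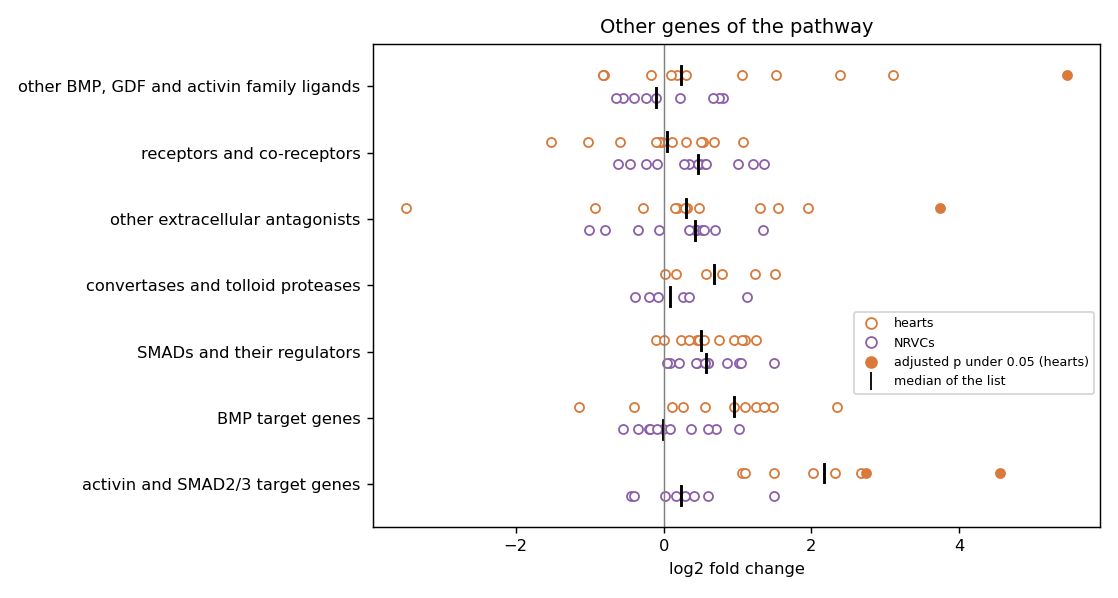
Log2 fold change of each tested gene of the 7 pathway lists in hearts (orange) and NRVCs (purple), with the list's median as a bar. Filled points passed the test in hearts: Gdf6 at 5.46, Sost at 3.74, Ctgf at 4.55 and Fstl3 at 2.74. The medians of the activin and SMAD2/3 targets are 2.17 in hearts and 0.23 in NRVCs.

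In NRVCs none of the 7 lists held a gene that passed edgeR's test. Of 13 receptors and co-receptors 3 were higher at an unadjusted p under 0.05, all for BMPs, against 5.79% of all genes. The median was 0.46. The type I receptor gene Bmpr1a stood at 34.2 ± 13.7 with siNC and 69 ± 6.69 CPM with siJmjd4 (log2 fold change 1.01, SE 0.33, edgeR, adjusted p = 0.379). Without siNC replicate 3 it passed at 0.72 (edgeR, adjusted p = 0.0371), in a fit that called 77 of 15798 genes higher. With any other library left out Bmpr1a did not pass (edgeR, adjusted p = 0.246 to 0.669). The type II receptor gene Bmpr2 stood at 16.9 ± 7.13 and 39.2 ± 15.7 CPM (1.21, SE 0.44) and Bmpr1b at 0.22 ± 0.0806 and 0.572 ± 0.219 CPM (1.36, SE 0.56), both at an adjusted p of 0.379 by edgeR. Crim1, a membrane antagonist, was the 1 of 11 antagonists at an unadjusted p under 0.05 (1.34, SE 0.45, edgeR, adjusted p = 0.379). All 12 SMADs and regulators were positive, with a median of 0.58, or 0.25 without siNC replicate 3. The medians were 0.23 for the 8 activin and SMAD2/3 targets, 0.09 for the 6 proteases, -0.01 for the 11 BMP targets and -0.10 for the 9 other ligands, with no gene of these at an unadjusted p under 0.05.

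The genes whose pattern over the 6 libraries was nearest to a member's were sought among genes of at least 5 CPM, by the root mean square difference of log2 levels after each gene's mean was removed. In hearts, of 10041 genes, those nearest to Fstl3 were Ankrd45 (0.2), Efhd2 (0.218) and Fzd2 (0.221), a Wnt receptor gene, and all 3 had passed edgeR's test. Nearest to Fstl1 were Tgfb3 (0.14), a TGF-beta ligand gene that had passed, and Fbln5 (0.162), an elastic fibre gene that had not. In NRVCs, of 10018 genes, Mbnl1 (0.166), Bbx (0.174) and Thoc2 (0.201) were nearest to Inhba, and Eif3a (0.0263), Strn3 (0.0351) and Elf1 (0.0406) to Fstl1. None of these 6 passed edgeR's test in NRVCs, where 1 of 15497 genes did. In both systems the genes were picked by their values in the same libraries that were tested. Whether they passed is therefore not a separate result. The members' own standard deviations over the libraries, on the same scale, were 1.51 for Fstl3 and 1.41 for Fstl1 in hearts and 1.63 for Inhba and 0.726 for Fstl1 in NRVCs.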

How the data were processed

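The 12 RNA libraries fall into 4 groups of 3, which come from the labels alone. The authors deposited whole-number counts per gene symbol, not normalized, in 1 table per species. Per the submitters' processing notes, which give no roles, the builds were mm10 and rn6 and the tools edgeR 3.20.9, HISAT2 2.1.0 and StringTie 1.3.4. The sources used here give neither annotation nor counting rules.

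Each species was fitted on its own 6 libraries with edgeR 4.0.16 (R 4.3.3): filterByExpr, TMM, a robust quasi-likelihood test, group as the 1 term, two-sided, Benjamini-Hochberg adjustment over all genes tested and a threshold of 0.05. Differences between systems came from 1 model of 12 libraries with 4 group means, over genes paired by symbol. Standard errors come from the F statistic. A count of 0 was taken to allow 3 counts, for counting error only.

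Alternatives were other scalings and filters, DESeq2 1.42.0, a replicate block, each library left out, and a correction for exon length (span 0.3), added after the data were seen. Lengths and positions are from GENCODE M21 on GRCm38, which covered 80% of tested mouse genes and, by symbol, 83.9% of tested rat genes. Within groups, a chi-square per degree of freedom of at least 26.1 separated every pair of libraries, and each was kept as its own sample. The code was tested on simulated counts. The members, lists and tests were chosen with earlier results of these data known. Named genes are the members, up to 4 genes per list with the smallest p and 3 genes nearest to each of the 2 leading members per system, from which the text gives a selection, and some genes are not reported here. No exact permutation test was made, since 3 libraries against 3 allow no p below 0.1.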

Additional observations from a re-analysis of the deposited data

Results flagged for a closer look

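The response of Fstl3 differed between the systems. Its log2 fold change was 3.13 higher in hearts than in NRVCs (SE 0.43, edgeR's quasi-likelihood test in 1 model of 12 libraries, adjusted p = 0.00509), from 2.74 in hearts, where all 3 cKO libraries were above all 3 flox libraries, and -0.40 in NRVCs, where the groups overlapped. Without siNC replicate 3, the highest NRVC library for Fstl3 at 87.7 CPM, the NRVC value was -0.05 and the difference 2.74 (edgeR, adjusted p = 0.00592). Jmjd4 itself was not lower in the libraries labelled siJmjd4 (log2 fold change 0.25). Species, age, tissue and the way Jmjd4 was targeted cannot be told apart in this difference.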

How the results depend on the processing

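With 3 libraries per group and 1 library standing apart in each control group, the counts of called members moved with the processing. In hearts the number called, 1 with all libraries, was 0 under scaling to total counts, 5 with DESeq2's Wald test, 0 with the replicate block, 3 with the length correction, 4 without both flox replicate 3 and cKO replicate 2, and 0 to 3 with 1 library left out. In NRVCs it was 0 except with DESeq2's Wald test, which called 1, Inhba. For the difference between systems it was 1 except with DESeq2's Wald test (3), the replicate block (0) and without both flox replicate 3 and siNC replicate 3 (3). For these counts the cause of each move was not tested. The replicate numbers did not pair the samples: same-numbered libraries correlated at 0.36, -0.48 and -0.33 in hearts and at -0.14, -0.02 and -0.15 in NRVCs, and not every library correlated best with its own number. With the block edgeR called 0 genes of the whole heart table, 1591 being at an unadjusted p under 0.05, and Fstl3 stood at 2.73 in hearts (adjusted p = 0.325) and 3.07 for the difference (adjusted p = 0.116). The counts of all genes called in hearts, 92 with all libraries, were 20 under scaling to total counts, 1748 with DESeq2, 146 without a filter, 609 with the length correction and 1373 without flox replicate 3, and in NRVCs 1, 168 with DESeq2 and 90 without siNC replicate 3. Scaling to total counts moved the median of all genes to 0.54 in hearts, 0.10 in NRVCs and 0.40 for the difference, and the length correction moved it to -0.12 in hearts.

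With 1 library left out in turn, 7 values that did not pass the test crossed 0. Bmp2 in hearts ran from -0.68 to 0.33. In NRVCs, Bmp4 ran from -0.012 to 0.45, Inhbb from -0.0023 to 0.27, Fst from -0.096 to 0.11 and Jmjd4 from -0.16 to 0.66, the lowest values of Bmp4, Inhbb and Jmjd4 being those without siNC replicate 3. The difference between systems ran from -0.76 to 0.21 for Inhba and from -0.13 to 0.64 for Bmp6. Scaling to total counts put Bmp2 in hearts at 0.091 and the difference for Inhba at 0.075. The length correction put Fst at -0.018, Pcsk5 at -0.45, Id1 at 0.092 and the median of the proteases at -0.38 in NRVCs. The cause of these turns was not tested.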
